A study of Mus musculus with 24 samples.

Results

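The members described here are single adenosines that a list of N6-methyladenosine (m6A) sites from lesioned mouse ganglia holds and the matching list from naive ganglia does not hold at the same chromosome, base and strand. They were chosen by the miCLIP values themselves, that is by being listed or not in each library, and nothing of those values is tested here. They numbered 14845 of the 18677 sites of the lesioned list (79.5%), and of 29291 distinct bases over both lists. A further 3832 bases were in both lists and 10614 in the naive list only. Both lists came from miCLIP, a method that crosslinks an m6A antibody to RNA and reads the methylated base from mutations in the reads. Each condition had 1 miCLIP library, from lumbar (L4/5) dorsal root ganglia of wild-type C57BL/6 mice. Their titles call them naive and SNL, with no day for the lesion. The treatment text given for every sample names either a sham operation or a crush of the sciatic nerve, so it was not settled here whether the naive animals had a sham operation.

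The change of the host genes with injury was read from RNA-seq of the same tissue, in 3 wild-type naive libraries and 3 wild-type libraries taken 1 day after the lesion (SNLD1). The labels do not say that these libraries came from separate animals, so the p-values measure the spread between these samples only. Another 6 RNA-seq libraries, from ganglia of genotype Mettl14-/- (titled Mettl14cKO, 3 naive and 3 SNLD1), entered the fit only to estimate the spread. The labels do not name the Cre line. Pulldown enrichment came from MeRIP-seq of wild-type ganglia, with 3 antibody libraries (IP) and 2 inputs per condition. RNA-seq libraries held 5707837 to 12639160 counts and MeRIP-seq libraries 846785 to 19653733. In the RNA-seq, 13 markers of sensory neurons summed to between 17652 and 19069 CPM (counts scaled to library size) in the naive wild-type libraries and 16999 to 18929 in the SNLD1 ones, while 6 skeletal muscle markers summed to between 7.36 and 14.6 CPM over both groups.

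Dorsal root ganglia hold the cell bodies of sensory neurons with their satellite glia, and these neurons can regrow a peripheral axon after a nerve lesion, during which they switch on a set of injury-induced genes such as the transcription factors Atf3, Jun and Sox11. m6A is placed on mRNA by a complex of Mettl3 and Mettl14 in the sequence class called DRACH, an A that follows a purine and stands before a C. It is known to be dense near stop codons and in 3′ untranslated regions. YTH-domain proteins read it and affect decay and translation of the message. A miCLIP list can hold a site only where bound RNA of the gene was sequenced.

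Of the members, 194 lay in windows around gene starts for which sequence was at hand. Of these, 10 are shown so that the form of a site can be seen, with the 5 listed bases in capitals and the methylated A in the middle of them. They come from RefSeq gene starts on GRCm38.p6 (mm10), run 5′ to 3′ on the strand of the gene and span 21 bases each. The windows of Cnst and Bdnf belong to genes that rose after injury, and that of Irs2 to a growth-signalling gene rich in members. The others were chosen after their values were seen, for their read counts and their place downstream of the gene start.

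Diras1, first site: agcggcggGGACCacagcggc
Diras1, second site: ggcggcgcGGACAgcagcgca
Yars: gactagcgTGACAgttcccgg
Pitpnc1: gtggctgcAAACTcacgggca
Igsf3: gggacacaGGACCggcgagcg
Ppp6r1: ggccggggAGACCcagccgct
Cnst: cggcggtgTGACAgctcgtcg
E2f6: cggccaggGAACCtgagcgcc
Irs2: tgcggcggGGACCgcgacaag
Bdnf: cgaggagaGGACTgctctcgc

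The first Diras1 site (chr10:81025343-81025363, minus strand) had 31 reads over the base, of which 2 were mutated, and stood 24 bases from the gene start. The second (chr10:81025363-81025383), 4 bases from the start, had 20 reads with 2 mutated. The Cnst site (chr1:179546520-179546540, plus strand) had 9 reads with 1 mutated, and a naive-list site stood 18 bases away. The Bdnf site (chr2:109692454-109692474, plus strand) had 3 reads with 1 mutated and no naive-list site within 225232 bases. These windows show some forms among the members. They hold a well-covered base with a small mutated share, a base beside a naive-list site, and a thinly covered base in a gene where the naive list is empty. Being near gene starts and mostly chosen for their reads, they do not stand for the members as a whole.

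The members were thinly covered. They had a median of 4 reads over the base (quartiles 2 and 6, highest 42), against 8 (quartiles 4 and 13, highest 51) in the same library at the bases found in both lists. The naive-only sites had a median of 3 (quartiles 2 and 5). A single mutated read supported 92.7% of the members (95% exact binomial interval 92.3% to 93.1%), 78.1% of the shared bases (76.8% to 79.4%) and 94.1% of the naive-only sites. These intervals, and all others on shares of sites, cover counting error only. At least 3 mutated reads were found at 132 members (0.889%) and at 6.05% of the shared bases. With 1 miCLIP library per condition these are descriptions, and no test was made of any measure of the lists, since the lists themselves define the members.

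The mutated share, which is the mutated reads divided by the reads over the base, had a median of 33.3% at members, 16.7% at shared bases in the lesioned list and 33.3% at naive-only sites. Both lists hold only bases with at least 2 reads and a mutated share of at most 50%, so a base with 2 reads and 1 mutated read enters at the upper limit. That was the case for 4367 members (29.4%), against 7.78% of the shared bases. The larger share at members goes with fewer reads under it. At members with at least 20 reads the median share was 4.76%.

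The share of the lesioned list that was absent from the naive list was lower in each higher class of reads. Of the sites with 2 reads, 93.6% (92.9% to 94.3%) were in the lesioned list only. The share was 83.4% at 4 to 5 reads, 55.2% at 10 to 19 and 27.0% (23.3% to 31.0%) at 20 reads or more, which is 145 of 537 sites. By mutated reads it went from 82.1% at 1 to 61.0% at 2, 44.6% at 3 and 11.8% (6.05% to 20.2%, 11 sites) at 4 or more. The naive list gave the same order when it was read against the lesioned one. Its one-list share was 89.7% at 2 reads and 27.1% at 20 or more, and 73.5% over all its sites.

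**Figure D1:**
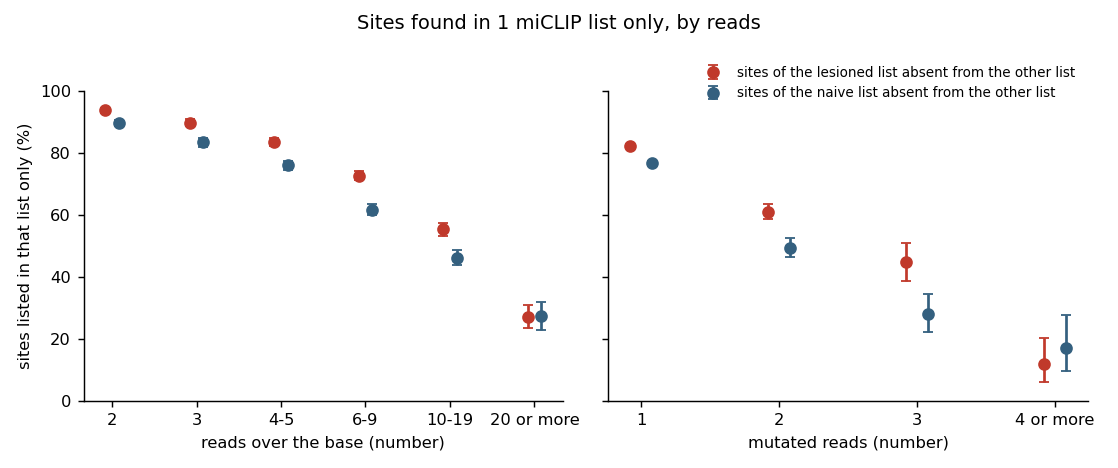
Share of each miCLIP list (y axis, percent) that is absent from the other list, by reads over the base (left) and by mutated reads (right). Red points are the lesioned list, blue points the naive list, and bars are 95% exact binomial intervals. In both lists the share falls with reads, from 93.6% and 89.7% at 2 reads to 27.0% and 27.1% at 20 reads or more.

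All listed sites fell in 18 sequence contexts of 5 bases, an A, G or T followed by G or A, then the methylated A, a C, and an A, C or T. GGACC was the most frequent of the 18 at the members, with 2155 sites (14.5%), against 21.0% at shared bases. GGAC with any listed last base made up 36.5% of members (35.7% to 37.3%), 43.6% of shared bases (42.1% to 45.2%) and 37.4% of naive-only sites. An A in place of the G before the methylated base was found at 19.0% of members (18.4% to 19.7%), 10.7% of shared bases (9.71% to 11.7%) and 18.6% of naive-only sites. The members' contexts were close to those of the sites found in naive ganglia alone, and the shared bases stood apart from both.

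Within the members the context moved with the evidence. Members with 1 mutated read had GGAC at 36.0% and an A before the methylated base at 19.8%. Members with 2 or more had GGAC at 43.3% (40.3% to 46.3%) and the A at 9.36% (7.69% to 11.3%). The 132 members with at least 3 mutated reads had that A at 5.30%. High coverage alone did not go the same way, as 29.7% of the 145 members with at least 20 reads had it.

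The nearest naive-list site was a median of 635 bases away from a member (quartiles 88 and 12929). It was within 10 bases for 3.19% of the members, within 100 for 26.8% (26.1% to 27.5%), within 1000 for 54.7% and within 10000 for 72.9%. Read the other way, the naive-only sites lay a median of 308.5 bases from the lesioned list, with 33.2% within 100 bases. The lesioned list holds 1.29 times as many sites as the naive list, and a longer list leaves shorter distances to it. At the edge of the rule, the 50 members closest to a naive-list site, 4 bases away, had a median of 7 reads and a mutated share of 15.5%, and the 3832 bases at distance 0, which are no members, had 8 reads and 16.7%. Of the members with at least 20 reads, 77.9% had a naive-list site within 100 bases.

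**Figure D2:**
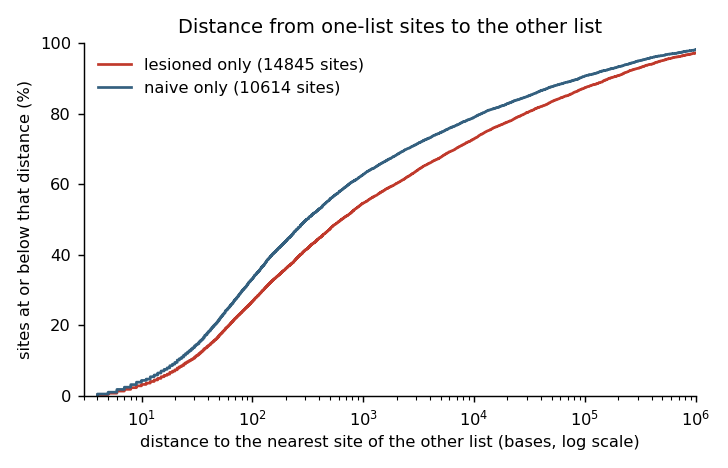
Cumulative share of sites (y axis, percent) by distance to the nearest site of the other list (x axis, bases, log scale) for the 14845 lesioned-only sites (red) and the 10614 naive-only sites (blue). The red curve passes 26.8% at 100 bases and the blue one 33.2%.

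Of the members, 97.1% lay inside a single gene span, 1.19% in several overlapping spans and 1.74% in none. Exons and untranslated regions were not used here. For the 11406 members in a gene of known strand, the median position was 79.3% of the way from gene start to gene end, and 42.6% were within 3000 bases of the gene end. The shared bases were at 74.9% and 43.2%. Fewer members than shared bases stood within 300 bases of the gene start, 6.45% (6.01% to 6.92%) against 9.79% (8.74% to 10.9%), and the naive-only sites were at 6.94%. By chromosome, members made up between 74.3% (chromosome 10) and 86.3% (chromosome 16) of the lesioned list's sites on the autosomes and chromosome X. They were 0 of 1 on chromosome Y and 7 of 7 on the mitochondrial chromosome.

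The members were spread over 4868 host genes of the count tables, which held 14332 of them. In 2054 of these genes there was 1 member, in 848 there were 5 or more and in 206 there were 10 or more. Most members lay in genes that the naive list marked too: 11567 of the assigned members (80.7%) were in genes with at least 1 naive-list site, at other bases. The remaining 2765 lay in 1726 genes with no naive-list site, of which 1123 genes held 1 member. In those genes the members had a median of 3 reads, against 4 in the others. In the reverse direction, 1422 naive-only sites (13.9%) lay in genes with no site of the lesioned list.

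Several of the genes with most members encode parts of the cytoskeleton or its linkers. Plec, which encodes the linker plectin, held 47 members beside 50 shared and 42 naive-only sites, and Map1a, a microtubule-associated protein, held 45 beside 60 and 46. Ahnak held 41, Prune2 39, the spectrin gene Sptbn1 37, the linker gene Dst 36, Map1b 31, Tnks1bp1 29, Epb4.1l1 29 and the dynein heavy chain gene Dync1h1 28. Of these 10, 0 passed the edgeR test for an injury change in RNA-seq, with 1 at an unadjusted p under 0.05 and 0 by DESeq2, and each also held naive-list sites. Map1b was read at 3914, 1991 and 4122 CPM in the naive libraries and at 3701, 1734 and 4008 CPM after the lesion, ranges that overlap.

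The members with most reads stood beside naive-list sites. The base with the most was in Tubb2a, a β-tubulin gene (chr13:34074465-34074465, minus strand), with 42 reads, 1 of them mutated, and a naive-list site 521 bases away. Trarg1 had a member with 40 reads, 3 of them mutated, 30 bases from a naive-list site. Spock2 had one with 38 reads, Map1b had 2 with 38 and 34, Nfe2l1 had one with 35, the neurofilament gene Nefl one with 35 and Tppp3 one with 34. The distance to the naive list was at most 84 bases for all of these other than Tubb2a.

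The members with most mutated reads had 5 or 4 of them. A site in Tsc22d1 had 5 mutated of 17 reads and a naive-list site 36 bases away. The Sox11 site at chr12:27342411-27342411 (minus strand, context GGACC) had 5 of 14 and no naive-list site within 1129490 bases. Sites with 4 mutated reads were in Map1a, Camk2g, the antioxidant gene Srxn1, Ahnak2, Syt11 and Ubb, each within 208 bases of a naive-list site. Of these 8 members, the one in Sox11 was the only one with no naive-list site within 208 bases.

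Atf3, a transcription factor induced by axon injury, held 15 members and no naive-list site (chr1:191170296-191183333, minus strand), the most of any gene with no naive-list site. Of the 15, 12 were within 3000 bases of the gene end, 1 was in the middle of the span and 2 were 182 and 212 bases from the gene start. Their reads ranged from 6 to 22 with a median of 12. The best covered, at chr1:191171133-191171133 (context GGACC), had 22 reads with 3 mutated. The one 212 bases from the gene start, at chr1:191183121-191183121 (context GGACC), had 3 mutated of 6. The nearest naive-list site to any of them was 144705 bases away, outside the gene.

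Other genes with members and no naive-list site had fewer or thinner sites. Gfra1, the receptor subunit for the growth factor GDNF, held 13 members, with 2 to 11 reads each, and Itpkc, a kinase of inositol trisphosphate, held 11 with 2 to 5 reads. Gadd45g, a stress-induced gene of the Gadd45 family, held 10 members with 3 to 13 reads. Zdhhc8 held 10, Rab3d 9, Unc45a 8, and Bdnf, Plekho2 and Gprin1 7 each. Bdnf encodes a neurotrophin. Of its members, 5 stood between 3372 and 3637 bases from the gene end, among them 2 with 19 reads each at chr2:109723517-109723517 (context GGACC) and chr2:109723526-109723526 (context GGACT), close enough for the same reads to cover both. Sox11 held 6 members with 3 to 14 reads, of which 4 had the context GGAC.

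**Figure D3:**
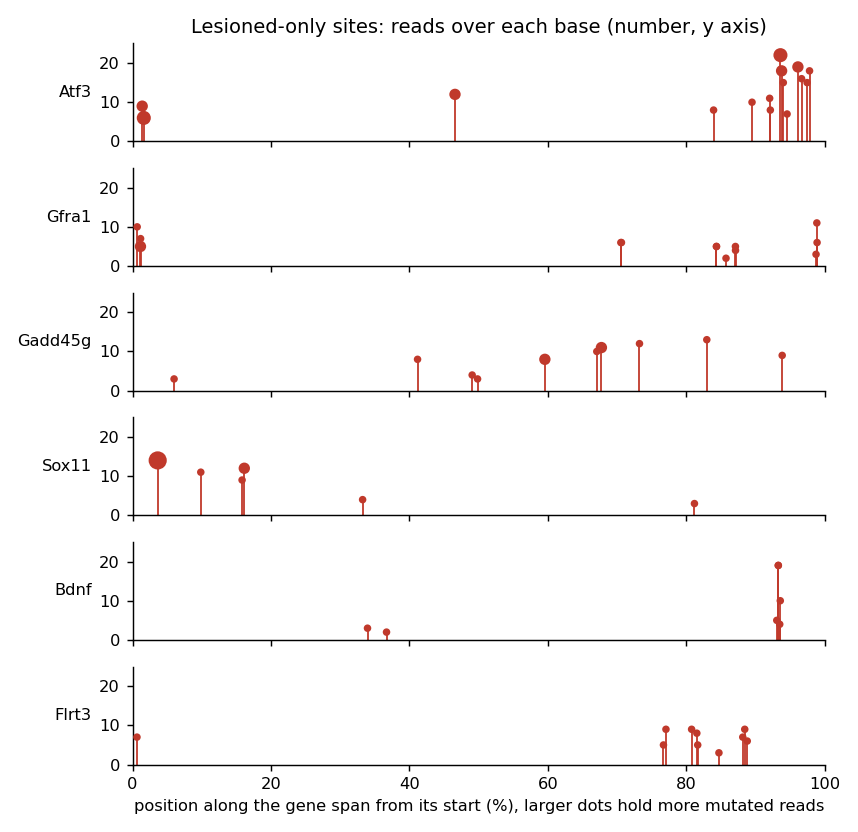
Lesioned-only sites along 6 host genes. The x axis is the position in the gene span from its start (percent), the y axis the number of reads over the base, and larger dots hold more mutated reads. Atf3 (15 sites), Bdnf (7 sites) and Flrt3 (10 sites) have most sites towards the end of the span, and Sox11 (6 sites) has its best supported site near the start.

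In the wild-type RNA-seq, which the choice of members did not use, 126 genes rose (0.948% of the 13291 genes tested) and 10 fell (0.0752%) at 1 day after the lesion (edgeR quasi-likelihood test, adjusted p under 0.05). Of the 4532 host genes of members that were tested, 58 rose (1.28%) and 3 fell (0.0662%). Their median log2 change was -0.03, against -0.01 over all genes tested. At an unadjusted p under 0.05, in either direction, were 976 of the 13291 genes tested and 346 of the 4532 host genes. The host genes as a whole were near the background. Leaving out 1 wild-type library gave between 26 and 67 host genes that rose, with 26 without naive library 1, 30 without naive library 3, 35 without SNLD1 library 1 and 29 without SNLD1 library 3, and 0 to 6 that fell.

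They divided by whether the naive list marked the gene too. Of 1587 tested host genes with no naive-list site, 38 rose (2.39%) and 1 fell, and the median log2 change was 0.00. Of 2945 with naive-list sites, 20 rose (0.679%) and 2 fell, with a median of -0.05. Of 938 tested genes with naive-only sites alone, 3 rose (0.320%) and 2 fell, and the median was -0.05. Of the 7642 genes with no site in either list, 64 rose (0.837%). Among genes with no naive-list site, the share that rose was 1.57% with 1 member, 2.58% with 2 members and 5.91% (13 of 220) with 3 or more. In the genes with naive-only sites alone it was 0% with 1 site (0 of 691 by edgeR, with 39 at an unadjusted p under 0.05 in either direction). There it was 1.09% with 2 sites (2 of 184) and 1.59% with 3 or more (1 of 63). The shares in this class were also higher with more sites, but they rest on only 3 genes that rose. These shares were not tested against each other. Leaving out 1 wild-type library gave between 18 and 38 genes that rose in the class with no naive-list site, so that without naive library 1, naive library 3, SNLD1 library 1 or SNLD1 library 3 the count was 18, 21, 25 and 19. In each of these fits their share was above the background of that fit. It was 1.13% against 0.444% without naive library 1 and 1.19% against 0.548% without SNLD1 library 3. These fits share most of their libraries. A list can hold a site only where RNA of the gene was sequenced, so this class was not chosen independently of RNA level. The part of RNA level in these shares was not tested.

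The 126 genes that rose held 266 sites of the lesioned list and 94 of the naive list, a ratio of 2.83, where the lists as a whole had a ratio of 1.29. Of the 266 sites 223 were members (83.8%). The ratio was higher in each higher class of log2 change, whether or not the genes were called. It was 1.08 for the 785 genes that were below -0.5, 1.29 between -0.2 and 0.2 and 2.26 between 0.5 and 1. Between 1 and 2 it was 2.51, and for the 53 genes at 2 or more it was 15.2 (61 sites against 4). Only 14 of those 53 genes held members, and of the 61 sites 15 were in Atf3 and 11 in Flrt3. Genes with at least 1 member made up 26.4% of those 53 and 36.3% of the genes between -0.2 and 0.2, while genes with at least 1 naive-list site made up 5.66% and 32.7%. Over the 4 classes from 0.2 upwards, the share of genes with members lay between 26.4% and 29.0%, while the share with naive-list sites went from 24.0% to 5.66%. Whether methylation per molecule differed was not tested by the lists. In these bulk ganglia, fewer cells of a type and less RNA per cell cannot be told apart.

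**Figure D4:**
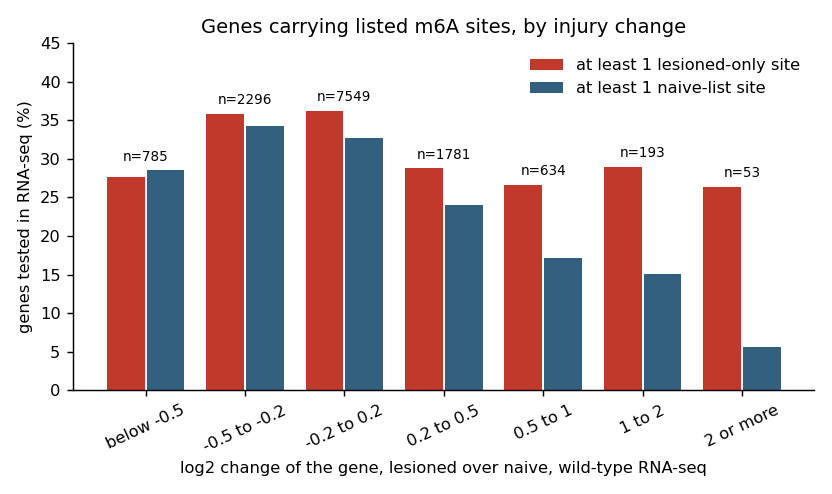
Percent of genes tested in RNA-seq (y axis) that hold at least 1 lesioned-only site (red) or at least 1 naive-list site (blue), by class of the log2 change at 1 day after the lesion in wild type (x axis), with the number of genes above each pair. The red bars lie between 26.4% and 36.3% and the blue bars end at 5.66% in the 53 genes at 2 or more.

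Atf3 was read at 8.51, 9.41 and 11.1 CPM in the naive libraries and at 380, 243 and 505 CPM in the SNLD1 libraries. The groups were far apart, with a log2 change of 5.27 (SE 0.269, 38.6-fold, adjusted p 2.49e-09 by edgeR). Flrt3, a cell adhesion protein, was at 78.6, 114 and 85.5 CPM and then at 760, 830 and 1095 CPM, a log2 change of 3.27 (adjusted p 1.06e-08 by edgeR). It held 10 members and 1 shared site. Sox11, a transcription factor of neuronal growth, was at 37.9, 24.0 and 19.99 CPM and then at 166, 150 and 239 CPM, with no overlap and a log2 change of 2.76 (SE 0.259, adjusted p 4.68e-06 by edgeR).

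Bdnf stood at 129, 87.4 and 72.2 CPM in the naive libraries and at 280, 309 and 333 CPM after the lesion, a log2 change of 1.68 (SE 0.199, adjusted p 7.32e-05 by edgeR). Gfra1 stood at 61.1, 63.5 and 67.8 CPM and then at 110, 117 and 149 CPM, a log2 change of 0.97 (adjusted p 0.00937 by edgeR). Neither gene's groups overlapped, and neither had a naive-list site. Smim3, with 5 members and no naive-list site, rose by 2.06 on the log2 scale (adjusted p 1.38e-06 by edgeR).

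For some genes the naive list was not empty. Jun, another injury-induced transcription factor, held 11 members beside 14 shared and 5 naive-only sites. It was at 7.54, 3.95 and 8.36 CPM and then at 20.7, 12.4 and 17.1 CPM, with no overlap and a log2 change of 1.30 (adjusted p 0.0298 by edgeR). Cnst held 12 members beside 6 and 11 and rose from 314, 340 and 358 CPM to 564, 781 and 744 CPM. Itga7, an integrin subunit, held 12 members and 3 naive-only sites and rose by 1.26 on the log2 scale. Fam53c held 15 members, 4 shared and 1 naive-only site and rose by 0.72. Among the other named genes that rose, Srxn1 held 8 members, Rhoq 6, the calcineurin inhibitor Rcan1 5, the macrophage growth factor Csf1 5, and Dclk3 4, with log2 changes between 0.74 and 1.77. Gadd45a, a stress-induced gene, held 2 members and 2 shared sites and rose by 3.12 (adjusted p 9.71e-06 by edgeR).

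The 3 host genes that fell held few members. Lrrn1 held 5 beside 2 shared and 7 naive-only sites, and went from 151, 148 and 165 CPM to 104, 111 and 98.2 CPM, a log2 change of -0.57 (adjusted p 0.0491 by edgeR). Shox2 held 2 members and had a log2 change of -0.99, and Nim1k held 1 and had -1.06. Several genes rich in members but without naive-list sites did not pass the test. Gadd45g was at 5.80, 1.09 and 5.55 CPM in the naive libraries and at 25.8, 5.72 and 19.9 CPM after the lesion, groups that overlap, with a log2 value of 1.98 (adjusted p 0.0594 by edgeR). Itpkc had a log2 value of 1.54 (adjusted p 0.0749 by edgeR). Zdhhc8, Rab3d, Unc45a, Plekho2 and Gprin1 had log2 values between -0.80 and 0.46.

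**Figure D5:**
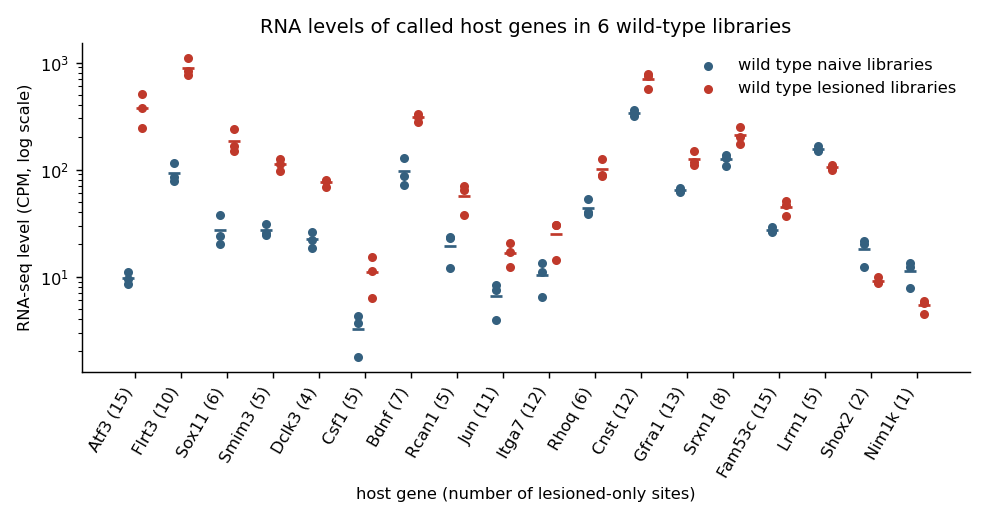
RNA-seq level (y axis, CPM, log scale) of the 18 host genes named by their call, in each of 3 naive (blue) and 3 SNLD1 (red) wild-type libraries. Short lines are group means, and the number of lesioned-only sites stands after each gene name. The groups do not overlap in any of the 18 genes, of which 15 rose and 3 fell.

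The call of a gene does not rest on 1 library for Atf3, Bdnf, Cnst, Dclk3, Flrt3, Gadd45a, Rcan1, Rhoq, Smim3 and Sox11, which passed under all 10 alternative fits. The other 9 named genes that were called passed under fewer. Csf1 passed under 5 of the 10 and Gfra1 under 8. Fam53c, Itga7, Jun, Nim1k, Shox2 and Srxn1 each passed under 4, and Lrrn1 under 2, so that the 3 genes that fell passed in a minority of fits. Their log2 changes kept their sign in each fit. Jun reached an adjusted p of 0.149 (edgeR) and Gfra1 of 0.0929 (edgeR) in the least favourable one.

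The lists of genes by function are read against all genes tested in RNA-seq, of which 34.1% (4532 of 13291) held a member and 0.948% rose. Of those 13291 genes, 976 had an unadjusted p under 0.05 in either direction. In each list the genes with members are counted among its genes in the RNA-seq counts, tested or not. That base differs from the base of the 34.1%. These lists hold known injury and neuronal genes and were chosen with earlier results known, so their calls are no independent evidence. Of 24 injury-induced transcription factors 18 held members, 81 in all, and 5 of the 18 had no naive-list site. Of the 23 that were tested 6 rose (Atf3, Fosl2, Jun, Klf6, Smad1 and Sox11) and none fell, with a median log2 change of 0.53. Of 28 growth and regeneration effectors 17 held 95 members, and 11 of 25 tested rose, among them Flrt3, Gadd45a, Bdnf, the tubulin-binding gene Stmn4 and the cytokine-signalling inhibitor Socs3, with a median of 0.82. Gap43, the growth-cone protein of that field, held 3 members and had a log2 value of 0.23 (adjusted p 0.861 by edgeR).

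Of 21 growth-signalling genes 18 held 98 members, and only Gfra1 rose of the 20 tested. Its partner Ret, the GDNF receptor kinase, held 15 members and 9 naive-list sites, with a log2 value of 0.30 (adjusted p 0.820 by edgeR). Irs2, an adaptor of the insulin receptor, held 14 members and was too low to be tested, at no more than 0.854 CPM in any wild-type library. Of 26 genes of the axon cytoskeleton and transport 23 held 369 members beside 229 shared and 279 naive-only sites, and of the 26 tested 0 passed (edgeR), with 1 at an unadjusted p under 0.05 and 0 by DESeq2. Of 26 sensory channels and receptors 20 held 106 members, Scn10a, a sodium channel of nociceptors, with 17 and Kcna1 with 14, and of the 23 tested 0 passed (edgeR), with 5 at an unadjusted p under 0.05 and 0 by DESeq2. Those 5 of 23 were a larger share than the 976 of all 13291 genes, a difference that was not tested. Of 19 genes of the m6A machinery 8 held 25 members, 10 of them in Rbm15b, and of the 17 tested 0 passed by edgeR, by DESeq2 or at an unadjusted p under 0.05. Mettl14 held no site in either list. Of 31 translation factors 22 held 71 members, and of the 30 tested Eif3b rose.

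Markers of other cell types held members too. Of 9 Schwann cell markers 7 held 38 members, and of 9 satellite glia markers 5 held 15. Of 10 macrophage markers 4 held 7 members, of 6 fibroblast markers 4 held 5, of 8 endothelial and mural markers 3 held 4, and of 6 skeletal muscle markers none held any. Of these markers 0 passed the injury test by edgeR or by DESeq2, and at an unadjusted p under 0.05 there was 1 in the macrophage list, 1 in the fibroblast list and 0 in the others. The lists do not hold every marker of these cells. Gfap, a glial gene outside them, held 2 members and no naive-list site. It rose by 3.62 on the log2 scale (adjusted p 0.00185 by edgeR). The macrophage list summed to 124 to 245 CPM in the naive wild-type libraries and 158 to 271 CPM in the SNLD1 ones, with a median log2 value of 0.31 and no marker at 0 in every wild-type library, and its part in the result was not tested. Of 13 sensory neuron markers 12 held 67 members, led by Avil with 15. Of these 13 markers 0 passed the injury test by edgeR, with 1 at an unadjusted p under 0.05 and 1 called by DESeq2, and the median log2 value was -0.09.

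The MeRIP-seq gave no gene whose antibody enrichment over input changed with injury (0 of 14705 tested, 0% of all genes in both directions, by edgeR). Of the 4812 host genes of members in that test, 10 had an unadjusted p under 0.05, as had 30 of all 14705 genes. Both are smaller shares than evenly spread p-values would give at that level. Among the host genes DESeq2 gave 0 calls, with 20 at an unadjusted p under 0.05. The median log2 change of enrichment was -0.00 over host genes, 0.04 over those with no naive-list site and 0.05 over all genes. With 3 pulldowns and 2 inputs of unequal depth, the SE of this change was over 1 on the log2 scale for each gene given below. These SEs come from the fit without a replicate block, although same-numbered IP libraries of the 2 conditions deviated together.

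Atf3 shows what these libraries hold. It was at 9.92 and 17.6 CPM in the naive inputs and 495 and 577 CPM in the SNLD1 inputs. In the pulldowns it was at 31.3, 154 and 13.2 CPM in naive and at 1840, 3995 and 976 CPM in SNLD1. Both kinds of library were far higher after the lesion, and the change of their ratio was -0.16 on the log2 scale (SE 1.40, adjusted p 0.9999 by edgeR). For Bdnf the same change was 0.64 (SE 1.18), for Gfra1 0.59 (SE 1.09) and for Sox11 1.81 (SE 1.33), none of them called.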

How the data were processed

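Counts of RNA-seq and MeRIP-seq reads per gene symbol were deposited by the authors without normalization. The labels' protocols name Trizol extraction, poly(A) selection and Smart-seq2 libraries, a kit that does not keep strand, so a gene and an antisense partner share counts. The submitters' processing notes name Trimmomatic, STAR, DESeq2 and mm10, without versions. Neither the tool that counted reads nor the one that called sites is named in the labels (not given in the sources used here). The miCLIP lists deposited by the authors give each site's reads, mutated reads, 5-base context and a further value of unit other, which equalled mutated reads over reads to within 1e-05.

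A site was a member when no naive-list site had its chromosome, base and strand. Sites were assigned to gene spans of RefSeq GRCm38.p6, on the gene's strand where known (27025 of 49980 genes). That table held 23203 of the 24421 count-table symbols directly, and 1068 more through a synonym. At 720 of 720 sites inside a RefSeq promoter window the listed context stood at the listed base, and 99.2% of 14246 sites were on the strand of their gene. Exons were not used here.

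Counts were fitted in R 4.3.3 with edgeR 4.0.16 (filterByExpr, TMM, glmQLFit, glmQLFTest), over all 12 RNA-seq libraries as 4 groups and the 10 MeRIP-seq libraries in 4 groups. Calls were made after Benjamini-Hochberg adjustment across every gene tested, at an adjusted p under 0.05. CPM values used TMM-adjusted totals. Scripts were tested on simulated data. Alternatives were DESeq2 1.42.0, no filter on low counts, a replicate block, the 6 wild-type RNA-seq libraries alone, leaving out each library, spans on either strand, and other site matches and minimums. Same-numbered IP libraries of the 2 conditions deviated together (correlations 0.534 to 0.799), a pairing seen only in the data. Shares carry 95% Clopper-Pearson intervals. Python 3.11.15, pandas 2.3.3, scipy 1.17.1 and matplotlib 3.10.9 were used.

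The members and gene lists were chosen with earlier results of these data known. Named were the 10 host genes with most members, up to 15 called host genes per direction with most members, the 10 with most members among genes with no naive-list site, the 8 members with most reads and the 8 with most mutated reads, up to 4 genes per pathway list, and Atf3, Sox11, Jun, Gap43, Gadd45a, Flrt3, Bdnf and Mettl14. Fosl2, Klf6, Smad1, Stmn4, Socs3, Eif3b, Avil and Gfap were named after their values were seen.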

Additional observations from a re-analysis of the deposited data

How the results depend on the processing

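Taking a naive-list site within 2 bases as the same site could not change the 14845 members, as none stood closer than 4 bases to one. The number of members was 14371 with a naive-list site within 10 bases taken as the same site. It was 145 among sites with at least 20 reads and 132 among sites with at least 3 mutated reads, so most of the members rest on thin coverage. Host genes that rose (58) numbered 84 with DESeq2, 84 without the filter on low counts and 39 with the 6 wild-type libraries alone, and 26 to 67 with 1 library left out. Those that fell (3) numbered 10 with DESeq2, 8 without the filter, 0 with the 6 wild-type libraries alone, and 0 to 6 with 1 library left out. The host genes with no naive-list site that rose (38) numbered 51 with DESeq2, 50 without the filter, 27 with the 6 libraries alone and 18 to 38 with 1 library left out. The cause of these moves was not tested, beyond the smaller number of libraries. With a replicate block 68 host genes rose, 4 fell, and 44 rose among those with no naive-list site. In the wild-type RNA-seq the numbers did not pair the samples, as same-numbered libraries correlated at 0.00927, 0.621 and 0.0926 and not every library correlated best with its own number. The change of antibody enrichment had 0 calls among host genes under every alternative run (edgeR, and DESeq2), the replicate block included, with 2 to 45 host genes at an unadjusted p under 0.05. With the small number of pulldown and input libraries and their wide errors, these counts of 0 say nothing about stability or about the absence of a change. Of the 19 named genes called, 10 were called under all 10 alternatives. The smallest MeRIP-seq library held 846785 counts. With 1 miCLIP library per condition, the difference between conditions and that between libraries cannot be told apart.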
